A study of Mus musculus with 8 samples.

Results

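The enzymes that turn cholesterol into bile acids were followed in mouse liver in which hepatocytes carried extra POLR2G, a subunit of RNA polymerase II. The members are 9 genes of the classic and alternative bile acid pathways, chosen by symbol: Cyp7a1, Cyp8b1, Cyp27a1, Cyp7b1, Cyp39a1, Akr1d1, Hsd3b7, Amacr and Acox2. Symbols were matched to the Ensembl identifiers of a table of 20894 genes, and 8 of the 9 have a row there. Akr1d1, the reductase that shapes the A ring of bile acids, was not analysed here. All 8 others had enough counts to be tested.

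Wild-type mice received an adeno-associated virus, AAV8, in which the TBG promoter drove either POLR2G or, as the control, green fluorescent protein (GFP). Livers of both groups were collected after a daytime fast, and poly-A RNA of the whole liver was sequenced in 4 libraries per group. The TBG promoter comes from the thyroxine-binding globulin gene and acts mainly in hepatocytes. The labels do not state sex, age, strain or vector dose. No label links a library to one mouse. The p-values therefore cover the spread between libraries alone, which may be technical. One POLR2G library carries a number that the labels do not list and is called the unnumbered POLR2G library.

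Cholesterol becomes bile acid by 2 routes. In the classic route CYP7A1 hydroxylates the sterol ring in the endoplasmic reticulum, and this step limits the rate of the whole pathway. In the alternative route CYP27A1 first hydroxylates the side chain in mitochondria and CYP7B1 then hydroxylates the ring. Both routes share the enzymes that change the ring and shorten the side chain in peroxisomes, and bile acids returning to the liver repress the first step through the receptor FXR.

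Total counts were 14159056 to 22165491 per library, and the 8 enzyme genes had between 114 and 13292 counts in a library. Levels are normalised counts (CPM, the count as a rate of the library total after TMM scaling), and means come with the SD of the 4 libraries. Polr2g checked the labels, with 12.4 to 14.8 CPM in the GFP and 2300 to 2632 CPM in the POLR2G libraries. Summed hepatocyte markers (8 of 8 genes with counts, among them Alb and Apoa1) measured 124600 to 146000 CPM in the GFP and 116900 to 130200 CPM in the POLR2G libraries. Most of that sum was Alb alone, with 90020 to 109500 CPM in the GFP and 83340 to 95550 CPM in the POLR2G libraries. Markers of other cells were far lower. The 7 Kupffer cell markers summed to 178 to 279 CPM in the GFP and 193 to 384 CPM in the POLR2G libraries, and 6 cholangiocyte markers to 5.64 to 11.7 and 6.53 to 10.8 CPM. In whole liver, fewer cells of a type and less RNA per cell cannot be told apart.

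Extra POLR2G was not accompanied by a called change in any of the 8 enzyme genes. By edgeR's quasi-likelihood test, with adjustment over all 10390 genes tested, 0 of the 8 passed the threshold of 0.05, where 4 of all genes tested did (0.0385%). DESeq2, which called 1.80% of the 7769 genes it adjusted, and limma-voom also called 0 of the 8. At an unadjusted p under 0.05, edgeR gave 2 members. Cyp39a1 was lower, as were 4.10% of all genes tested at that level, and Amacr higher, as were 4.20% (8.30% in both directions). The means of 4 members were higher and those of 4 lower. The median log2 fold change of the 8 was 0.034, against -0.0031 over all genes tested.

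**Figure D1:**
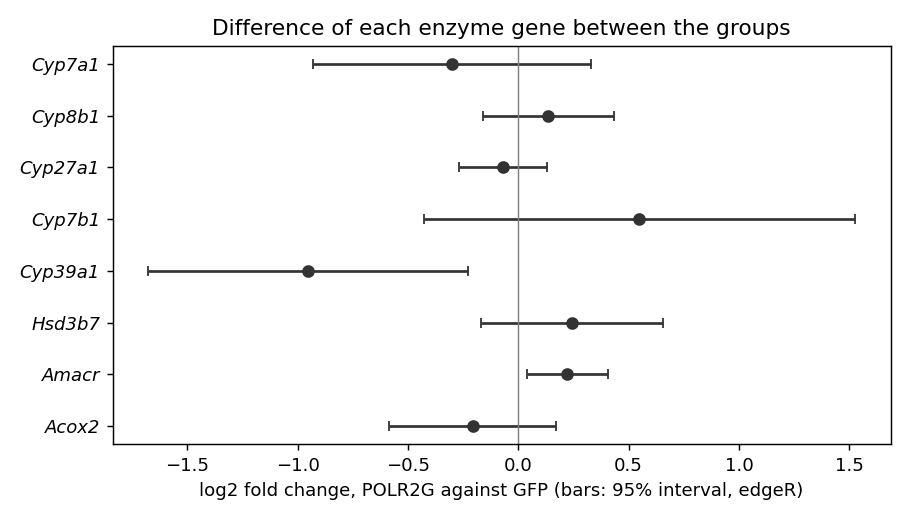
Log2 fold change of each enzyme gene, POLR2G against GFP libraries (n = 4 each), with points for the edgeR estimate and bars for its 95% interval. The intervals of Cyp39a1 and Amacr leave out 0 before adjustment over all genes, and the widest is that of Cyp7b1, from -0.43 to 1.53.

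Cyp7a1 (ENSMUSG00000028240; GRCm38 chromosome 4, 6265612 to 6275633, minus strand) encodes the rate-limiting hydroxylase of the classic route. It measured 419, 378, 680 and 672 CPM in GFP replicates 1 to 4. In POLR2G replicates 1, 3 and 4 it measured 307, 657 and 465 CPM, and in the unnumbered library 318. Each group held low and high libraries, with a 1.80-fold range in the GFP and a 2.14-fold range in the POLR2G group, and the groups overlapped. The means were 537 ± 161 and 437 ± 164 CPM (log2 fold change -0.30, SE 0.280, edgeR adjusted p = 0.842). On the linear scale the 95% interval of the fold, POLR2G over GFP, ran from 0.526 to 1.26, which includes a difference in either direction. Leaving out POLR2G replicate 3 moved the log2 fold change to -0.56, and leaving out POLR2G replicate 1 to -0.16.

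Cyp8b1 (ENSMUSG00000050445; chromosome 9, 121914356 to 121916305, minus strand) encodes the hydroxylase that directs the classic route to cholic acid. GFP replicates 1 to 4 had 368, 422, 418 and 552 CPM. POLR2G replicates 1, 3 and 4 had 537, 517 and 468 CPM and the unnumbered library 412. The POLR2G values lay within the span of the GFP values. The means were 440.0 ± 78.6 and 484 ± 55.9 CPM (log2 fold change 0.14, SE 0.132, edgeR adjusted p = 0.846), with a 95% interval of the fold from 0.895 to 1.35.

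The promoter table held a window for 5 of the 9 members, Cyp8b1, Cyp27a1, Akr1d1, Hsd3b7 and Acox2 (RefSeq, GRCm38.p6). Of the members with values here, only Cyp8b1 held any of the letters searched, and its 250 bases before the start site are shown beside those of Cyp27a1, the most abundant member per length. Both strands were searched from 250 bases before to 50 after the start for the LRH-1 core TCAAGG, the nuclear receptor half-site AGGTCA, the HNF4A core CAAAGTC and the TATA box, spelled TATAAA. Capitals mark the matches. The windows shown are chromosome 9, 121916306 to 121916555, minus strand, for Cyp8b1 and chromosome 1, 74713285 to 74713534, plus strand, for Cyp27a1.
Cyp8b1: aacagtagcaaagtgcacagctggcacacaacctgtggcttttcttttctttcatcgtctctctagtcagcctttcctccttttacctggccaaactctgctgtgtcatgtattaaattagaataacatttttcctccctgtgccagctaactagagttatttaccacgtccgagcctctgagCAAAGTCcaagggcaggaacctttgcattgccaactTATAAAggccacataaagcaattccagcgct
Cyp27a1: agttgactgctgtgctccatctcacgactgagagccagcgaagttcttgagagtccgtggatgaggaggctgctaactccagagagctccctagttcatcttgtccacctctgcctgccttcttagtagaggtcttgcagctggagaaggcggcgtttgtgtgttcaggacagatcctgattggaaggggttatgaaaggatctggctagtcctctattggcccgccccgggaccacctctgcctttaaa
In Cyp8b1 the HNF4A core began at -67 and the TATA box at -31 relative to the start site, both on the gene's strand and not overlapping each other. The HNF4A core occurred in 4.47% and the TATA box in 13.6% of 32544 promoter windows of the same length, the LRH-1 core in 14.4% and the half-site in 16.2%. These matches describe the letters only, and no binding was measured here.

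Cyp27a1 (ENSMUSG00000026170; chromosome 1, 74713574 to 74737892, plus strand) encodes the mitochondrial hydroxylase that opens the alternative route and also cuts into the side chain in the classic one. It varied little. GFP replicates 1 to 4 had 587, 651, 744 and 720 CPM. The POLR2G values were 631, 693 and 655 CPM in replicates 1, 3 and 4 and 598 CPM in the unnumbered library. The groups overlapped over most of their range. The means were 675 ± 71.1 and 644 ± 40.2 CPM (log2 fold change -0.069, SE 0.0892, edgeR adjusted p = 0.899). On the linear scale the 95% interval of the fold ran from 0.830 to 1.096.

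Cyp7b1 (ENSMUSG00000039519; chromosome 3, 18071950 to 18243338, minus strand) encodes the oxysterol hydroxylase of the alternative route, and its mRNA is known to be higher in livers of male than of female mice. In GFP replicates 1 to 4 it measured 542, 169, 93.2 and 239 CPM. Among the POLR2G libraries, replicates 1, 3 and 4 had 441, 358 and 386 CPM and the unnumbered library 341. GFP replicate 1 lay above all POLR2G libraries, and the other 3 GFP libraries lay below them. The GFP libraries spanned 5.82-fold and the POLR2G libraries 1.29-fold. The SD over the mean was 75.5% in the GFP group, where 96.0% of all genes tested had a smaller value, and 11.4% in the POLR2G group, where 40.7% did. Among the 6037 genes with a mean of at least 8 CPM, the median was 11.5% in the GFP and 9.18% in the POLR2G group.

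The Cyp7b1 means were 261 ± 197 and 382 ± 43.5 CPM (log2 fold change 0.55, SE 0.435, edgeR adjusted p = 0.804). A single GFP library moved this value. Without GFP replicate 1 the log2 fold change was 1.19 (edgeR adjusted p = 0.238) and the groups no longer overlapped. Without GFP replicate 3 it was 0.27 (adjusted p = 0.867).

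Cyp39a1 (ENSMUSG00000023963; chromosome 17, 43667425 to 43751431, plus strand) encodes an oxysterol hydroxylase of the liver. GFP replicates 1 to 4 had 38.1, 50.5, 113 and 41.7 CPM. POLR2G replicates 1, 3 and 4 had 28.1, 34.3 and 27.6 CPM and the unnumbered library 35.5. All 4 POLR2G libraries lay below all 4 GFP libraries, and GFP replicate 3 lay far above the rest. The means were 60.9 ± 35.2 and 31.4 ± 4.11 CPM (log2 fold change -0.95, SE 0.322, edgeR unadjusted p = 0.0152, adjusted p = 0.460). Without GFP replicate 3 the log2 fold change was -0.47 (adjusted p = 0.339), and the groups still did not overlap, with 38.1 CPM as the lowest GFP and 35.5 CPM as the highest POLR2G value.

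Hsd3b7 (ENSMUSG00000042289; chromosome 7, 127800604 to 127803802, plus strand) encodes the dehydrogenase that oxidises the ring hydroxyl after the first hydroxylations. It had the lowest level of the 8, with 114 to 237 counts in a library. GFP replicates 1 to 4 had 8.76, 12.5, 7.35 and 10.9 CPM. POLR2G replicates 1, 3 and 4 had 10.7, 10.3 and 11.7 CPM and the unnumbered library 14.2. The groups overlapped. The means were 9.88 ± 2.27 and 11.7 ± 1.75 CPM (log2 fold change 0.24, SE 0.183, edgeR adjusted p = 0.787), with a 95% interval of the fold from 0.890 to 1.58.

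Amacr (ENSMUSG00000022244; chromosome 15, 10981756 to 10996626, plus strand) encodes the racemase that turns the side chain into the form that peroxisomal oxidation accepts. GFP replicates 1 to 4 had 177, 172, 145 and 154 CPM. In POLR2G replicates 1, 3 and 4 it reached 205, 180 and 186 CPM, and in the unnumbered library 184. All POLR2G libraries lay above all GFP libraries, by 3.1 CPM at the nearest pair. The means were 162 ± 14.8 and 189 ± 11.2 CPM, a 1.17-fold difference (log2 fold change 0.22, SE 0.0814, edgeR unadjusted p = 0.0227, adjusted p = 0.494). With library totals alone as the scaling, the log2 fold change was 0.15 and the groups overlapped.

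Acox2 (ENSMUSG00000021751; chromosome 14, 8225511 to 8259353, minus strand) encodes the peroxisomal oxidase that acts next on the side chain. GFP replicates 1 to 4 had 126, 117, 72.9 and 137 CPM. POLR2G replicates 1, 3 and 4 had 92.7, 101 and 93.0 CPM and the unnumbered library 106. GFP replicate 3 was the lowest of all libraries, and the other 3 GFP libraries lay above every POLR2G library. The means were 113 ± 28.0 and 98.1 ± 6.49 CPM (log2 fold change -0.21, SE 0.168, edgeR adjusted p = 0.815). Without GFP replicate 3 the log2 fold change was -0.37 (adjusted p = 0.230) and the groups did not overlap.

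**Figure D2:**
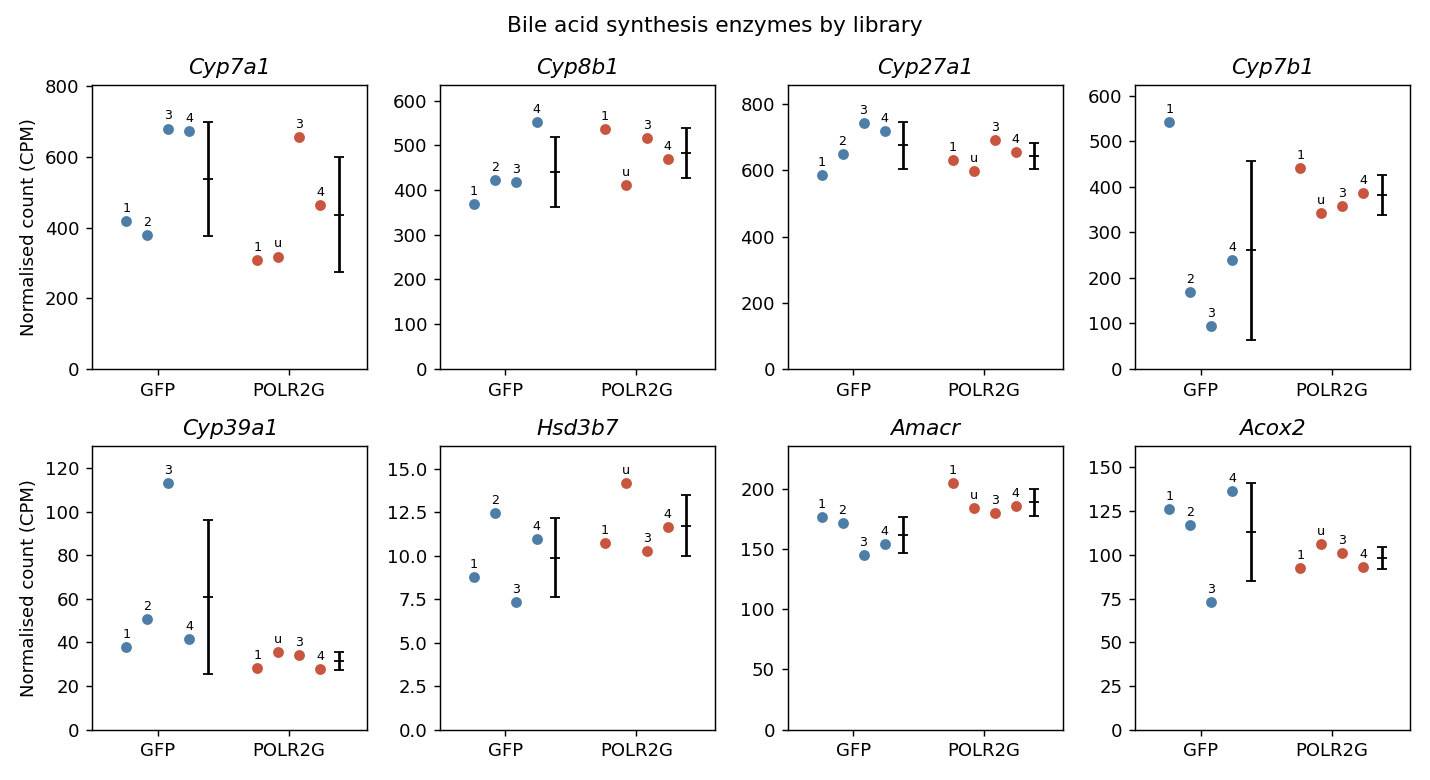
Normalised counts (CPM, linear axes from 0) of the 8 enzyme genes in each library, with points numbered by replicate (u is the unnumbered POLR2G library) and bars for the mean ± SD (n = 4 per group). Groups do not overlap for Cyp39a1 and Amacr, and GFP replicate 3 is the highest library for Cyp7a1, Cyp27a1 and Cyp39a1 and the lowest for Cyp7b1, Hsd3b7, Amacr and Acox2.

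In all, 2 of the 8 members had groups that did not overlap, 1 higher (Amacr) and 1 lower (Cyp39a1). Of all genes tested, 5.51% had such groups, 2.83% higher and 2.68% lower. With library totals alone as the scaling, 0 of the 8 members had them.

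The order of levels was compared per kilobase of the longest annotated coding transcript. In the GFP group it ran from Cyp27a1 (357 ± 37.6 CPM per kb) over Cyp8b1 (226 ± 40.3), Cyp7a1 (129 ± 38.7), Cyp7b1 (120.4 ± 90.9), Amacr (62.8 ± 5.75), Acox2 (38.9 ± 9.64) and Cyp39a1 (19.9 ± 11.5) to Hsd3b7 (5.41 ± 1.24). In the GFP group the library ranges overlapped for the neighbours Cyp7a1 and Cyp7b1, Cyp7b1 and Amacr, and Acox2 and Cyp39a1, so those pairs are not ordered beyond their spread. In the POLR2G group Cyp7b1 (176 ± 20.1 CPM per kb) stood above Cyp7a1 (105 ± 39.2) in 4 of 4 libraries, and in the GFP group Cyp7a1 stood above Cyp7b1 in 3 of 4. In the POLR2G group the only neighbours whose ranges overlapped were Cyp7a1 and Amacr. Such levels depend on the transcript assumed. GENCODE M21 gives 1 coding transcript for Cyp7a1, Cyp8b1, Cyp27a1, Cyp7b1 and Amacr, 3 for Acox2, 4 for Cyp39a1 and 7 for Hsd3b7. The table holds few counts for some ubiquitous genes (Actb had 0 to 29 in a library), and whether the values of genes with several transcripts cover all of them was not tested.

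Enzyme genes of the routes were also compared as ratios of mRNA counts within a library, which do not depend on the scaling between libraries. Enzyme activity and the flow through each route were not measured, and CYP27A1 also acts in the classic route. Cyp7b1 over Cyp7a1 was 1.30, 0.446, 0.137 and 0.355 in GFP replicates 1 to 4. It was 1.43, 0.545 and 0.831 in POLR2G replicates 1, 3 and 4 and 1.07 in the unnumbered library. The groups overlapped through GFP replicate 1, and the geometric means were 0.410 and 0.914. The log2 difference of 1.16 did not pass (exact two-sided permutation p = 0.171, adjusted over 3 ratios 0.300). It was 0.63 without GFP replicate 3 and 1.71 without GFP replicate 1.

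For the mRNA ratio of Cyp8b1 over Cyp7a1, the GFP replicates had 0.879, 1.12, 0.614 and 0.821. The ratio in POLR2G replicates 1, 3 and 4 was 1.75, 0.787 and 1.01, and in the unnumbered library 1.29. The groups overlapped, with geometric means of 0.839 and 1.16 (log2 difference 0.46, exact permutation p = 0.200, adjusted 0.300). Cyp27a1 over Cyp7a1 ranged from 1.071 to 1.72 in the GFP and from 1.054 to 2.05 in the POLR2G libraries (log2 difference 0.25, exact permutation p = 0.371, adjusted 0.371). With 4 libraries against 4, the exact test cannot give a p below 0.0286.

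**Figure D3:**
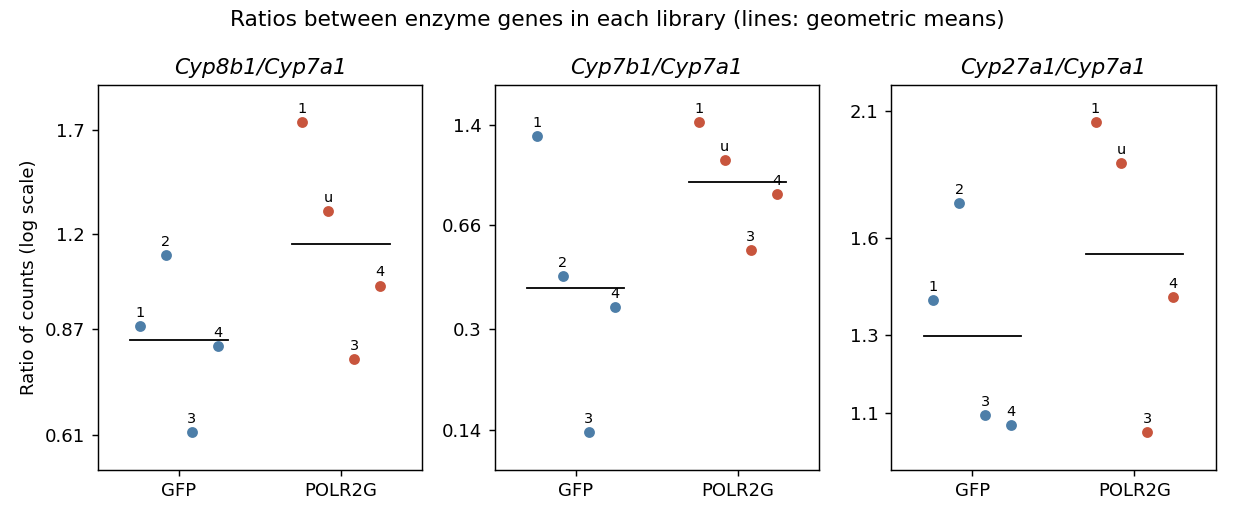
Ratio of counts between enzyme genes in each library (log axes), with points numbered by replicate (u is the unnumbered POLR2G library) and lines for the geometric mean of each group. The groups overlap in every ratio, and GFP replicate 3 has the lowest Cyp7b1/Cyp7a1 ratio, 0.137.

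Over the 8 libraries Cyp39a1, Cyp7b1 and Amacr passed by Pearson's r against a score of genes known for male-biased liver expression. By Spearman's rho Cyp39a1 alone passed, and the other members passed by neither. How many of all genes tested follow the score as closely was not computed, so the relation is not shown to be particular to these enzymes. The score of 14 such genes (among them Mup3, Serpina1e and Nudt7; Cyp7b1 left out) is their mean log2 CPM minus the GFP mean. It was 0.33, 0.056, -0.55 and 0.16 in GFP replicates 1 to 4, and 0.51, 0.36 and 0.46 in POLR2G replicates 1, 3 and 4 and 0.31 in the unnumbered library. GFP replicate 3 thus stood lowest, and the score of GFP replicate 1 lay among those of the POLR2G libraries. Of the 14 genes 11 had a higher mean in the POLR2G group (median log2 fold change 0.45). By edgeR over all genes 0 passed, and 7 of the 14 had an unadjusted p under 0.05, against 8.30% of all genes tested.

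Cyp39a1 fell along this score over the 8 libraries, with Pearson's r = -0.99 (exact permutation p = 1.49e-04, adjusted over 36 relations 0.00536) and Spearman's rho = -0.95 (exact permutation p = 0.00114, adjusted 0.0402). Without the 2 libraries farthest from the median score, GFP replicates 2 and 3, r was -0.94 over 6. Cyp7b1 followed the score in the other direction, with r = 0.93 (exact permutation p = 0.00159, adjusted 0.0286) and rho = 0.86 (exact permutation p = 0.0107, adjusted 0.0964), and r = 0.66 without those 2 libraries. For Amacr r was 0.86 (exact permutation p = 0.00246, adjusted 0.0295) and rho 0.90 (exact permutation p = 0.00456, adjusted 0.0548), and r was 0.93 without the 2 libraries. Cyp7a1 (r = -0.51, rho = -0.48) and Cyp8b1 (r = 0.31, rho = 0.31) did not pass (adjusted exact permutation p of r = 0.402 and 0.605). Nor did Cyp27a1 (r = -0.63, rho = -0.40), Hsd3b7 (r = 0.58, rho = 0.048) and Acox2 (r = 0.42, rho = -0.21). Their adjusted exact permutation p of r was 0.268, 0.371 and 0.473. For Acox2 r turned to -0.88 without GFP replicates 2 and 3. The genes of the score were chosen with earlier results of these data known. The mean score was also higher in the POLR2G group, and 4 libraries per group are too few for a correlation within one. Cyp39a1 and Amacr are also the members whose groups did not overlap. The permutations moved libraries across the groups, so these p-values cannot separate a relation between libraries from the group difference. The part of the score in the values of Cyp39a1, Cyp7b1 and Amacr was not tested.

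**Figure D4:**
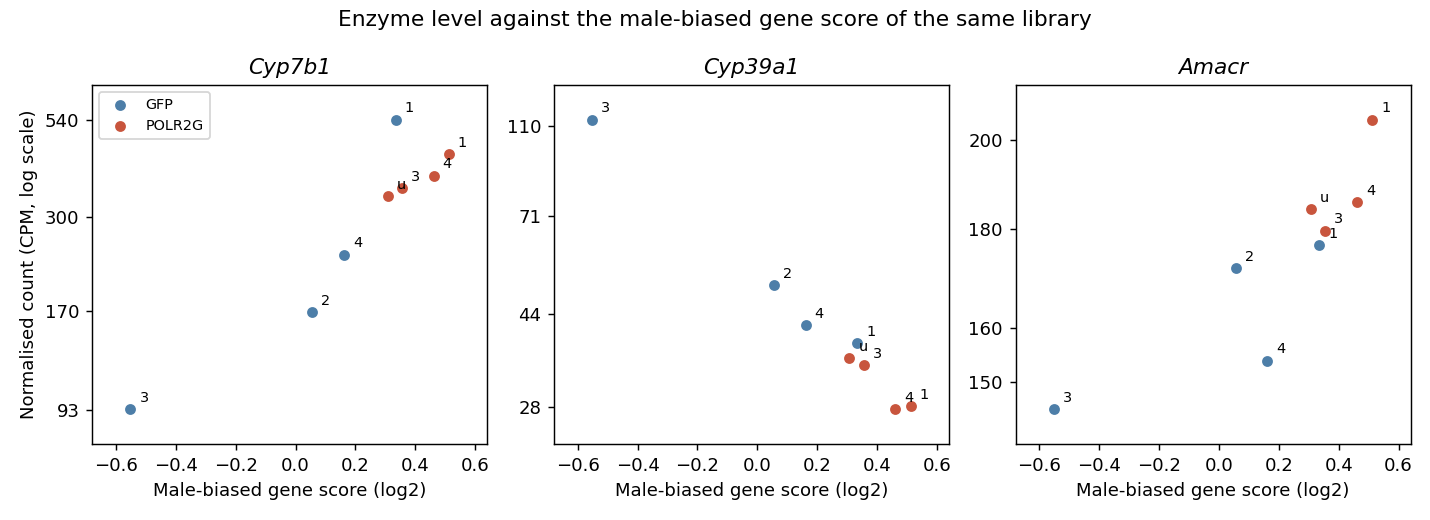
Normalised count (CPM, log axes) of Cyp7b1, Cyp39a1 and Amacr in each library against the score of 14 male-biased liver genes in the same library (log2, GFP mean at 0), with points numbered by replicate (u is the unnumbered POLR2G library). GFP replicate 3, at -0.55, lies at the far left, highest for Cyp39a1 (113 CPM) and lowest for Cyp7b1 (93.2 CPM).

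Genes known for female-biased liver expression were mostly too low to test, with 5 of 15 tested. Their score was 0.93 in GFP replicate 3, -0.45 to -0.096 in the other GFP libraries and -1.53 to -0.91 in the POLR2G libraries. Of the 5, 4 had a lower mean in the POLR2G group and 0 passed over all genes. At an unadjusted p under 0.05 were 5 of the 5, 4 lower and 1 higher (8.30% of all genes tested in both directions), and 3 had groups that did not overlap (5.51%). The other 10 were below the count filter, so these counts do not describe the whole list. Cyp17a1, a steroid hydroxylase, measured 20.3 ± 9.40 and 8.06 ± 2.18 CPM (log2 fold change -1.33, SE 0.317, edgeR adjusted p = 0.262). Acot3 had a lower mean as well (log2 fold change -2.28, adjusted p = 0.203).

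Of the 28 pairs of members, 2 passed by Pearson's r and 1 of these also by Spearman's rho, after adjustment over the same 36 relations. Cyp39a1 and Amacr had r = -0.84 (exact permutation p = 0.00479, adjusted 0.0345) and rho = -0.93 (exact permutation p = 0.00223, adjusted 0.0402). Without GFP replicates 2 and 3 their r was -0.84. Both are members whose groups did not overlap, in opposite directions. The permutations moved libraries across the groups, so the p-values of pairs cannot separate a relation between genes from the group difference. Cyp7b1 and Cyp39a1 had r = -0.90 (exact permutation p = 0.00446, adjusted 0.0345) and rho = -0.74 (exact permutation p = 0.0458, adjusted 0.259). Without the same 2 libraries r was -0.40, so this relation rests on them. Cyp7a1 and Cyp27a1 did not pass, with r = 0.84 over the 8 libraries (rho = 0.83, exact permutation p = 0.0112 and 0.0154, adjusted 0.0674 and 0.111). Without the 2 libraries farthest from the Cyp7a1 median, GFP replicates 3 and 4, r was 0.68. Cyp7a1 and Cyp8b1, the pair of the classic route, had r = 0.27 and rho = 0.14 (exact permutation p = 0.504 and 0.752).

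The genes most like a member over the 8 libraries were sought by Pearson's r of log2 CPM among 5870 others, and as the highest of so many these values are a description only. For Cyp7b1 they were Mup1 (r = 0.99, rho = 1), from 568 to 2972 CPM, Mup13 (r = 0.97) and the heme synthesis gene Alas2 (r = 0.97). Mup genes are near-identical copies among which estimated counts can be split. For Cyp7a1 they were Tmbim6, Nedd1 and Kif16b (r = 0.97, 0.96 and 0.96). Cyp8b1 was closest to Cnot10, Dhrs3 and Zfyve1 (r = 0.97, 0.97 and 0.94), and Cyp27a1 to Zfyve27, Notch2 and Scarb2 (each r = 0.96).

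The other genes of synthesis and conjugation showed small differences. Of the 18 genes with a row, 15 were tested, with 10 means higher and 5 lower in the POLR2G group. Their median log2 fold change was 0.17. By edgeR over all genes 0 passed, and 3 of the 15 had an unadjusted p under 0.05, against 8.30% of all genes tested. Those 3 were Fdxr and Fdx1, the reductase and ferredoxin that pass electrons to mitochondrial P450 enzymes such as CYP27A1, and Akr1c14, a hydroxysteroid dehydrogenase. Fdxr measured 21.6 ± 1.31 in the GFP and 27.3 ± 1.88 CPM in the POLR2G libraries, with no overlap (log2 fold change 0.34, SE 0.0824, edgeR adjusted p = 0.270). Fdx1 measured 124 ± 12.7 and 148 ± 11.2 CPM (0.25, SE 0.0888, adjusted p = 0.485), and Akr1c14 632 ± 32.9 and 770 ± 88.1 CPM (0.28, SE 0.0921, adjusted p = 0.443). Baat, which joins bile acids to taurine or glycine, had 309 ± 10.3 and 309 ± 16.3 CPM (0.0012, SE 0.0634), and Hsd17b4, the peroxisomal enzyme after ACOX2, 539.6 ± 55.1 and 531 ± 29.6 CPM (-0.023, SE 0.0869). Baat and Hsd17b4 are named for their role in the pathway.

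Of the 21 regulators with a row, 19 were tested, with 6 means higher and 13 lower in the POLR2G group. Their median log2 fold change was -0.076. By edgeR over all genes 0 passed, and 2 of the 19 had an unadjusted p under 0.05, near the 8.30% of all genes tested. The leading gene was Ppargc1a, a coactivator of fasting genes, at 19.1 ± 2.65 in the GFP and 13.7 ± 1.81 CPM in the POLR2G libraries, with no overlap (-0.48, SE 0.134, edgeR adjusted p = 0.360). Nfil3, a clock-linked repressor (-0.34, SE 0.148), and Prox1, a corepressor of Cyp7a1 (-0.34, SE 0.206), came next, at adjusted p of 0.585 and 0.736. Nr1h4, which encodes FXR, measured 74.4 ± 5.89 and 76.3 ± 7.79 CPM (0.035, SE 0.0912), and its target Nr0b2, the repressor SHP, 15.3 ± 5.46 and 14.5 ± 3.82 CPM (-0.083, SE 0.266). Both are named for their role.

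Of 13 bile acid transporter genes 11 were tested, and 1 passed, Slc10a2, which encodes the apical sodium-dependent bile acid transporter. It had 55.6, 51.9, 65.0 and 74.7 CPM in GFP replicates 1 to 4. POLR2G replicates 1, 3 and 4 had 30.5, 27.2 and 30.0 CPM and the unnumbered library 32.8, so the groups lay far apart (log2 fold change -1.04, SE 0.120, edgeR adjusted p = 0.0306). Across the 11 genes, the median log2 fold change was -0.0091. Slco1a4 (-0.52, SE 0.239) and Abcc4 (-1.74, SE 1.48), both transporters of organic anions, did not pass (edgeR adjusted p = 0.605 and 0.821). Abcc4 lay near the floor, at 0 CPM in GFP replicate 2, POLR2G replicates 1 and 4 and the unnumbered library. In the remaining libraries it had 2.13 to 2.55 CPM.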

How the data were processed

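The deposited table holds estimated counts per gene, as whole numbers that the authors did not scale between libraries. Per the submitters' processing notes, the tool was Salmon 1.2.1, and GRCm38 and mm10 are listed as builds without further detail. Libraries were poly-A selected and strand-specific, per the labels' protocols. Symbols were found for 20817 of 20894 identifiers in the GENCODE M21 names (GRCm38), the source of coordinates, counted from 1.

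Columns were matched to samples by library name, and 1 POLR2G column was used without a replicate number. No library was taken for a duplicate (chi-square over its degrees of freedom 13.7 to 138 between libraries of a group). Groups were compared in edgeR 4.0.16 under R 4.3.3 by quasi-likelihood (TMM, filterByExpr with a minimum count of 10 and total of 15, group only, two-sided, Benjamini-Hochberg adjustment), over 10390 genes. An SE is the log2 fold change over the square root of F. Log2 CPM used a prior count of 2. On simulated counts for this comparison (10390 genes) edgeR found 36% of the 1.5-fold and 72% of the 2-fold differences, and 9 of its 152 calls were false. The measured counts gave 4 calls. Adjustment is less strict where more genes change, so the simulated shares may overstate what could be found in the measured counts. Members, gene lists and tests were chosen with earlier results of these data known. Named are all members and, of each other list, called genes and the 3 with the smallest p, beside genes named for their role, and the 3 genes with the highest r for each of 4 members. Of cell type markers those 3 were Ttr, Lyve1 and Csf1r, with log2 fold changes of -0.19, -0.85 and -0.52, and 0 of 27 tested passed. Alternatives were other scalings, DESeq2 1.42.0, limma-voom (limma 3.58.1), other low-count filters, the replicate block and each library left out.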

Additional observations from a re-analysis of the deposited data

Results flagged for a closer look

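Cyp39a1 in GFP replicate 3, at 113 CPM, stood far from the other 3 GFP libraries, which had 38.1 to 50.5 CPM. Its gap to the nearest of them took up more of the group's range than Dixon's test allows at the 95% level for 4 samples. A flag of this kind is met by chance in about 1 in 20 groups, and 16 groups were looked at.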

How the results depend on the processing

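The count of enzyme genes past the threshold was 0 under each of the 19 alternatives run, and the log2 fold change of each of the 8 genes kept its sign in all of them. The lowest adjusted p of any member was 0.0812, for Cyp39a1 in DESeq2. The count of all genes called was 4 in the main test, 140 with DESeq2, 1 with no composition scaling, and 1 to 6 with 1 library left out. The count of members with groups apart was 2, 0 with no composition scaling, and 2 to 3 with 1 library left out. The 3 ratios kept their direction and did not pass under any alternative run, where a single ratio could not pass on its own after adjustment. The replicate number as a block, over the 6 libraries with a shared number, called 2 genes, and the same 6 libraries without the block, chosen after seeing the data, called 1. Deviations of same-numbered libraries correlated at 0.064, -0.025 and 0.036, so the numbers are not taken to pair the samples. The causes of these differences were not tested. Hsd3b7 had the fewest counts of the members, 114 to 237 in a library. Whether this reflects depth or how the table covers its 7 coding transcripts was not tested.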
